A study of Homo sapiens with 8 samples.

Results

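The 9 genes described here lie in band q13 of chromosome 11: CCND1, FADD, ANO1, CTTN, PPFIA1, SHANK2, FGF19, FGF3 and FGF4. They were taken from a fixed list of genes of this band, which is often gained as one block in oral carcinoma, and all 9 were found by Ensembl identifier among the 63241 gene rows of the deposited count table. Of the 9, 6 had reads and 3 (FGF19, FGF3 and FGF4) had none in any library. The question was whether the genes rise together in any library.

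When a stretch of chromosome is amplified, its genes are gained together, but each is then transcribed according to its own promoter and to the cell type. CCND1 is usually named as a driver of the 11q13 amplicon in squamous carcinoma, with FADD, CTTN, ANO1 and PPFIA1 carried in the same core. The fibroblast growth factor genes lie between CCND1 and ANO1, and of them FGF3 and FGF4 are typically silent in adult epithelium even where they are gained.

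The series holds 8 RNA-seq libraries whose label is HSC3, a long-established human cell line derived from a squamous carcinoma of the tongue. Titles mark 4 libraries as KD (here knockdown 1 to 4) and 4 as control (control 1 to 4). The design text and the treatment protocol name the agents as si-Col1a1, an siRNA against COL1A1, and si-NC, while the column names of the count table call the first group a COL1A1 KO. Per the labels' protocols, both groups received 100 pmol of siRNA by lipofection, with harvest 48 hours later. Nothing in the labels says that replicate libraries are separate cultures, so a p-value here speaks only of the spread among these libraries.

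Total counts ran from 30684584 to 61795990 per library. COL1A1 stood at 368, 123, 301 and 155 CPM (a gene's counts over all counts of the library, times 1000000) in knockdown 1 to 4 and at 88.9, 8183, 476 and 689 CPM in control 1 to 4. Control 2, 3 and 4 lay above every knockdown library and control 1 below every one. The log2 fold change was -2.97 (SE 1.30, edgeR adjusted p = 0.981), so the labelled direction was fitted without passing the test. Groups are named by their labels only. Several libraries also went against the cell type on the label. The 10 skeletal muscle markers, among them TTN and CKM, took 3.68% of counts in knockdown 2, 4.52% in knockdown 4, 14.2% in control 1 and 14.3% in control 3, and at most 0.390% in the other 4 libraries. The 10 salivary gland markers, among them MUC5B and STATH, took 10.8% in knockdown 2 and 7.53% in control 1, and no more than 0.000765% elsewhere. The 10 squamous markers, mostly keratins, took from 0.0530% in control 1 and 0.120% in knockdown 2 to 16.1% in knockdown 1. Knockdown 2 and control 1 are called gland-rich below, and these 2 with knockdown 4 and control 3 muscle-rich. In such bulk libraries, fewer cells of a type and less RNA per cell cannot be told apart.

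No library had all 6 detected genes raised. A gene was counted as high in a library when its CPM was at least 2 times its own median over the 8 libraries. By this count 2 of the 6 genes were high in knockdown 1 (FADD and CTTN) and 2 in knockdown 2 (ANO1 and SHANK2). A single gene was high in knockdown 3 (CTTN), knockdown 4 (CCND1), control 1 (ANO1) and control 4 (FADD), and 0 were high in control 2 and control 3. Among all 21192 genes tested, the share counted as high in the same way was 6.88% in knockdown 1, 19.0% in knockdown 2, 6.31% in knockdown 3, 10.9% in knockdown 4, 12.6% in control 1, 11.8% in control 2, 19.3% in control 3 and 13.9% in control 4. CCND1 was high in 1 library only, and in that library ANO1 and SHANK2 were at their lowest and next to lowest levels. Conversely, a gene was counted as low at no more than 0.5 times its median. By this count ANO1 and SHANK2 were low in knockdown 4 (6.45% of tested genes were), CTTN in control 1 (20.4%), and FADD, ANO1 and SHANK2 in control 3 (9.29%). None was low in knockdown 1 (22.9%), knockdown 2 (2322 of 21192 genes), knockdown 3 (30.7%), control 2 (11.9%) or control 4 (21.8%). These counts are a description, with no test. A level raised in all or most libraries would also raise the gene's own median, so these counts cannot show it. Whether the band is gained in these libraries was not tested.

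**Figure D1:**
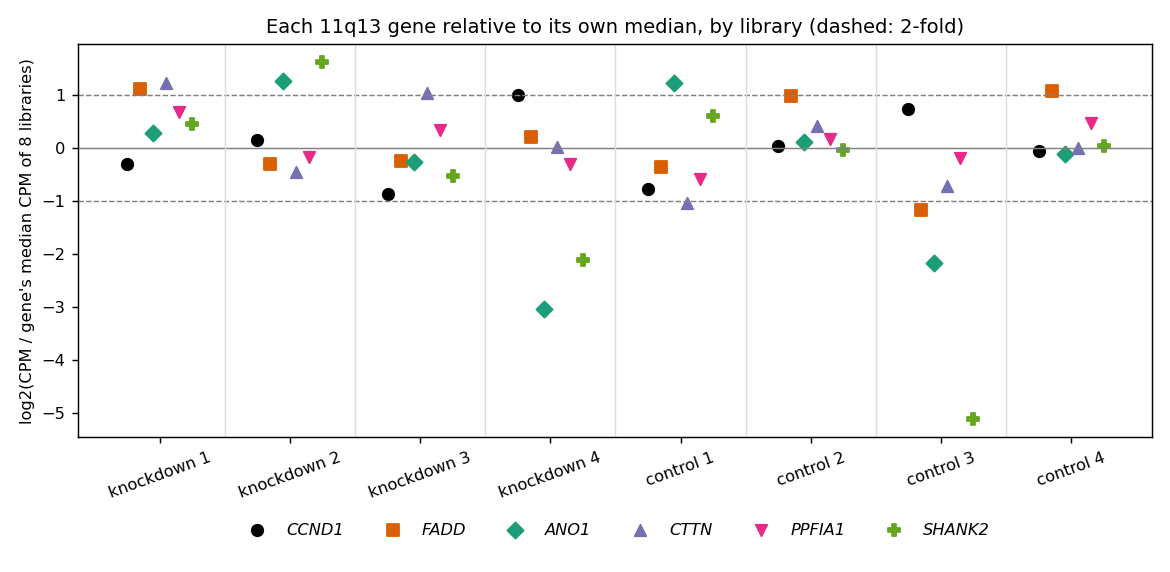
Log2 ratio of each gene's CPM to its median CPM over the 8 libraries (vertical axis), by library, for the 6 detected genes. Solid line, the median; dashed lines, 2-fold above and below. No library has all 6 symbols above the upper dashed line, and the ANO1 and SHANK2 symbols are the lowest of the 6 in knockdown 4 and control 3.

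The DNA just before the transcription start is shown because each gene of the band has its own promoter. The 250 bases before the RefSeq start (GRCh38.p14, chromosome 11, 5′ to 3′ on the gene's strand) are given for the 4 listed genes with an entry: PPFIA1 and FADD, whose levels are compared below, ANO1, which lies between them and CCND1, and FGF3, which had no reads. The RefSeq starts are not those of GENCODE 29 used below. For PPFIA1, ANO1 and FGF3 the RefSeq start lies upstream, and for FADD downstream. The ANO1 window ends at base 69985906, far before the GENCODE start at 70078302. The FGF3 window ends at base 69819417, before the GENCODE start at 69819024 on the minus strand. The FADD window from base 70203163 on, which holds the GC box match nearer the start, is inside the GENCODE gene. Motifs were searched on both strands and their matches are in capitals. The letters were GGGCGG for the GC box, CACCTG for the E-box and CCAAT for the box of that name. Further searches used TATAAA for the TATA box, the sequence TGANTCA for the AP-1 site, the sequence TGACGTCA for the cAMP response element, and either TTTGGCGC or the variant TTTCGCGC for the E2F site.
PPFIA1 (chr11:70270440-70270689, plus strand): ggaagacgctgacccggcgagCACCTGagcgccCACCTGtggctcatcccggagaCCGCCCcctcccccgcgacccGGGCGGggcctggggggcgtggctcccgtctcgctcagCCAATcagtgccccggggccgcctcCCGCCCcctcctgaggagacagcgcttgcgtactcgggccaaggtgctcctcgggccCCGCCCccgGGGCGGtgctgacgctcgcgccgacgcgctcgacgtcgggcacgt
FADD (chr11:70203046-70203295, plus strand): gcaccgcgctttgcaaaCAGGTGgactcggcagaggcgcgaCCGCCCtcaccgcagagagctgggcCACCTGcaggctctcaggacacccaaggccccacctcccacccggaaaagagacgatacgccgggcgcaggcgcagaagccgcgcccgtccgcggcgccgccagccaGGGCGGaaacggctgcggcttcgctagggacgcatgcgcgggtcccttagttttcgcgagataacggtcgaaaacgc
ANO1 (chr11:69985657-69985906, plus strand): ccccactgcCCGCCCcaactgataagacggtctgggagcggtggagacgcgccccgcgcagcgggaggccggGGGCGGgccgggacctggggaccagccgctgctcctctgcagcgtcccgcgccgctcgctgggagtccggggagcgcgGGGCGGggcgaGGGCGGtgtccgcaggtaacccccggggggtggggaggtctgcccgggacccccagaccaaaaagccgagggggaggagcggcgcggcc
FGF3 (chr11:69819417-69819666, minus strand): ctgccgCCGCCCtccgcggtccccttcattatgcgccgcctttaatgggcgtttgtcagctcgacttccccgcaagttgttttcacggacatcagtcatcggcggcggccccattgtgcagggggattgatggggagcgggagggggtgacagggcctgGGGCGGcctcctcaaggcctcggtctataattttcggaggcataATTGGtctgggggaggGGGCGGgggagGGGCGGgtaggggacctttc

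All 4 windows are rich in G and C, at 76.8% in PPFIA1, 68.8% in FADD, 78.0% in ANO1 and 64.4% in FGF3, against a median of 58.0% over the 35116 promoters of the table. The GC box matched 5 times in PPFIA1, 2 times in FADD, 4 times in ANO1 and 4 times in FGF3, and 42.6% of all promoters hold at least 1. The E-box matched 2 times each in PPFIA1 and FADD and is held by 17.5% of all promoters. The CCAAT box matched once in PPFIA1 and once in FGF3 (32.0% of all promoters). The letters of the TATA box, AP-1 site, cAMP response element and E2F site were in none of the 4 windows (10.7%, 6.57%, 1.65% and 0.968% of all promoters). FGF3, with 0 reads, thus had as many GC box matches as ANO1, which was detected in every library. A match is a description of the letters, not of binding.

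CCND1 encodes cyclin D1, the G1 cyclin that activates CDK4 and CDK6 towards the retinoblastoma protein. It lies on the plus strand at chr11:69641087-69654474 (ENSG00000110092.4; GENCODE 29 coordinates on GRCh38, as for every gene position from here on). Its level was 113, 155, 76.6 and 283 CPM in knockdown 1 to 4 and 82.1, 145, 233 and 136 CPM in control 1 to 4. The highest values, in knockdown 4 and control 3, came from libraries of different labels, and so did the lowest, in knockdown 3 and control 1. Muscle markers took 4.52% and 14.3% of counts in the highest 2, but also 14.2% in control 1 and 0.00451% in knockdown 3, the lowest 2. The highest library was 3.70 times the lowest, less than the median ratio of 5.73 over the 19360 tested genes with reads in every library. CCND1 overlaps LTO1 on the opposite strand, and with no strand setting known reads of the overlap cannot be told apart. LTO1 itself was far flatter, at 8.09 to 14.7 CPM.

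CTTN encodes cortactin, an actin-binding protein that stabilises branched filaments at the cell cortex and in invadopodia (chr11:70398404-70436584, plus strand). It stood at 438, 137, 382 and 189 CPM in knockdown 1 to 4 and at 91.1, 251, 114 and 187 CPM in control 1 to 4. Knockdown 1 and 3 were above every control library, and knockdown 2 and 4 lay within the control range, so the groups overlapped. Squamous marker shares lay in a similar order: 16.1%, 0.120%, 12.1% and 10.0% in knockdown 1 to 4 and 0.0530%, 6.46%, 1.95% and 5.68% in control 1 to 4. The part of squamous cell content in the CTTN values was not tested.

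PPFIA1 encodes liprin-alpha-1, a scaffold that binds LAR-type receptor phosphatases and acts in cell-matrix adhesion and motility (chr11:70270700-70385312, plus strand). Its levels were 69.5, 38.3, 54.6 and 35.2 CPM in knockdown 1 to 4 and 28.9, 48.4, 37.9 and 59.8 CPM in control 1 to 4. It was the steadiest of the 6 genes, with a ratio of 2.41 between the highest and the lowest library. Only 9.91% of all genes tested had reads in every library and a smaller ratio. Knockdown 1 was highest and control 1 lowest, as for CTTN.

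FADD encodes the adaptor that links death receptors such as FAS to caspase-8 (chr11:70203163-70207390, plus strand). It had few reads, 174, 33, 41 and 56 in knockdown 1 to 4 and 38, 162, 19 and 145 in control 1 to 4. These correspond to 2.89, 1.08, 1.12 and 1.53 CPM and to 1.03, 2.62, 0.589 and 2.79 CPM. Wilson 95% intervals, which cover counting error only, ran from 2.49 to 3.35 CPM in knockdown 1, from 2.37 to 3.28 in control 4 and from 2.25 to 3.06 in control 2. These 3 libraries were therefore not distinguishable from one another at this depth. All 3 lay above the other 5 libraries, of which knockdown 4 had the highest upper bound at 1.99 CPM.

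ANO1 encodes anoctamin-1 (TMEM16A), the calcium-activated chloride channel of salivary acinar cells and of interstitial cells of Cajal (chr11:70078302-70189528, plus strand). It stood at 125, 245, 85.7 and 12.6 CPM in knockdown 1 to 4 and at 241, 111, 22.7 and 94.6 CPM in control 1 to 4. The highest values, 245 and 241 CPM, were those of the gland-rich libraries, 1 of each label. The lowest, in knockdown 4 and control 3, were those of libraries rich in muscle markers with gland markers at no more than 0.000765% of counts. The remaining 4 libraries, with muscle markers at no more than 0.390% of counts, lay close together between 85.7 and 125 CPM. Leukocyte markers, a list that includes LYZ, took 1.42% of counts in knockdown 2 and 0.907% in control 1, and at most 0.0187% elsewhere. Markers of smooth muscle and interstitial cells of Cajal took 0.474% in control 1 and 0.222% in knockdown 2, but also 0.278% in control 3 and 0.0975% in knockdown 4, where ANO1 was lowest, and at most 0.0427% in the other 4. The part of these cell types in the ANO1 values was not tested.

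SHANK2 encodes a scaffold of the postsynaptic density that is also made in epithelia, where it sits near the apical membrane (chr11:70467856-71252577, minus strand). Its levels were 58.8, 133, 29.7 and 9.89 CPM in knockdown 1 to 4 and 65.0, 41.7, 1.24 and 44.5 CPM in control 1 to 4. The range was the widest of the 6 genes, with a ratio of 107 between knockdown 2 and control 3, where 40 reads were counted. Without the gland-rich libraries the ratio was 47.4, and among the 4 libraries that were not muscle-rich it was 1.98. For ANO1 these ratios were 19.5, 9.93 and 1.45.

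**Figure D2:**
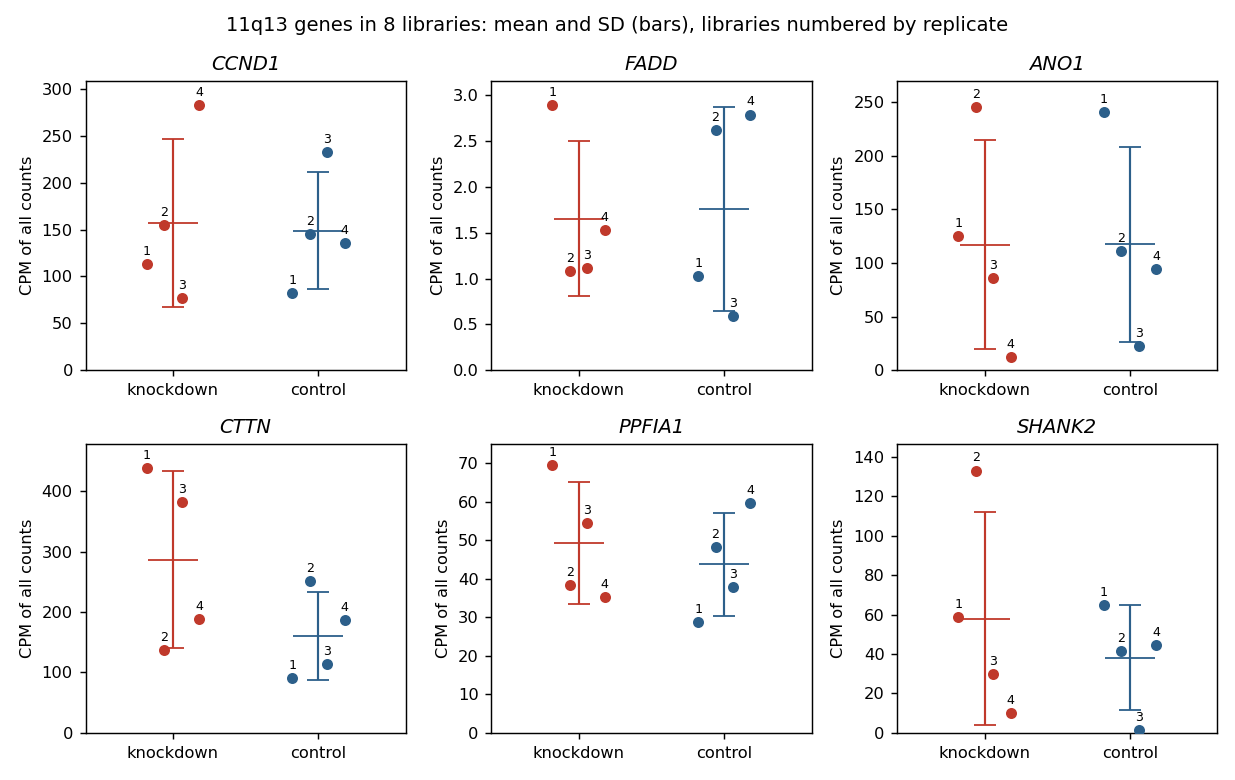
CPM of all counts (vertical axis, linear, from 0) of the 6 detected genes in the libraries labelled knockdown (red) and control (blue). Points are libraries, numbered by replicate, and bars are the group mean and SD (n = 4). The groups overlap for every gene, with ANO1 highest in knockdown 2 and control 1 and lowest in knockdown 4 and control 3.

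FGF19, FGF3 and FGF4 encode fibroblast growth factors, FGF19 an endocrine one of bile acid control and FGF3 and FGF4 factors of the embryo. They lie on the minus strand at chr11:69698232-69704642, chr11:69809969-69819024 and chr11:69771016-69775403, between CCND1 and ANO1. Each had 0 reads among the 346673448 counts of the 8 libraries. A count of 0 allows up to 3 counts, which is 0.0485 CPM in the deepest library, 0.0978 CPM in the shallowest and 0.00865 CPM over all 8. No fold can be given for them, and whether they differ between libraries was not detectable at this depth.

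Per kilobase of merged exon, the genes differed widely in median level over the 8 libraries. CCND1 (29.1 CPM per kb) and CTTN (27.0) were highest, followed by ANO1 (17.0), PPFIA1 (3.70), SHANK2 (2.29) and FADD (0.722). The order of CCND1 and CTTN changed between libraries: the CTTN to CCND1 ratio of CPM ran from 0.487 in control 3 and 0.667 in knockdown 4 to 4.99 in knockdown 3. The ANO1 to CCND1 ratio ran from 0.0443 in knockdown 4 to 2.93 in control 1, a span of 66.1-fold. A ratio within a library does not depend on its total count, so these neighbours changed unequally whatever the scaling. The CTTN to PPFIA1 ratio was steadier, between 3.00 and 7.01.

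The pairs of genes differed in how far they varied together. Pearson's r of log2(CPM + 1) was computed for the 15 pairs of the 6 genes over 8 libraries, with exact two-sided permutation tests adjusted over the pairs. ANO1 and SHANK2 had r = 0.87 (exact permutation p = 0.00724, adjusted p = 0.0794) and Spearman's rho = 0.95 (exact permutation p = 0.00114, adjusted p = 0.0171), and r was 0.87 without knockdown 4 and control 3, the libraries farthest from the median of ANO1. CTTN and PPFIA1 had r = 0.84 (exact permutation p = 0.0106, adjusted p = 0.0794) and rho = 0.74 (exact permutation p = 0.0458, adjusted p = 0.172), with r = 0.62 without knockdown 1 and control 1. FADD and PPFIA1 had r = 0.71 (exact permutation p = 0.0568, adjusted p = 0.213) and rho = 0.76 (exact permutation p = 0.0368, adjusted p = 0.172), but r was 0.36 without knockdown 1 and control 4. FADD and CTTN had r = 0.60 (exact permutation p = 0.124, adjusted p = 0.310) and rho = 0.76 (exact permutation p = 0.0368, adjusted p = 0.172), with r = 0.50 without the same libraries. Leaving out the libraries farthest from a gene's median narrows its range, which by itself can lower r. A fall in r therefore does not show what a relation rests on.

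For CCND1, r was below 0 with all 5 other genes, from -0.75 with ANO1 (exact permutation p = 0.0347, adjusted p = 0.174; rho = -0.38, exact permutation p = 0.360, adjusted p = 0.771; r = -0.77 without knockdown 3 and knockdown 4) to -0.12 with FADD (exact permutation p = 0.779, adjusted p = 0.834; rho = -0.17, exact permutation p = 0.703, adjusted p = 0.900; r = -0.33 without the same 2 libraries). Of the 15 pairs, 0 passed by r and 1, ANO1 with SHANK2, by rho. With library sizes scaled by TMM (trimmed mean of M values), 3 pairs passed by r, each with an exact permutation test adjusted p of 0.0353: ANO1 with SHANK2 (r = 0.89), CTTN with PPFIA1 (r = 0.92) and CCND1 with ANO1 (r = -0.89).

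The pairs were also computed over the 6 libraries that were not gland-rich, a choice made after seeing the marker shares. There, all 10 pairs without CCND1 had r above 0, from 0.49 for FADD and CTTN to 0.91 for ANO1 and PPFIA1, against 9 of 10 in all 8 libraries. All 5 pairs with CCND1 had r below 0, from -0.84 with ANO1 to -0.30 with FADD. None of the 15 passed (smallest exact permutation test adjusted p = 0.122 for r and 0.167 for rho, with 5 pairs at an unadjusted p under 0.05 for r). Of the 6 libraries, knockdown 4 and control 3 are muscle-rich. They held the highest CCND1 values (283 and 233 CPM). They also held the lowest values of the 6 for ANO1 (12.6 and 22.7 CPM), SHANK2 (9.89 and 1.24) and PPFIA1 (35.2 and 37.9). For FADD and CTTN control 3 was lowest, but knockdown 4 was not next to it. Among the other 4, the highest was 1.44 (PPFIA1) to 2.57 (FADD) times the lowest. The part of muscle content in these r values was not tested. No r was computed within labels, which hold 4 libraries each.

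As a further description of the same values, each gene was ranked against 13822 protein-coding genes. The measure was the root-mean-square difference of centred log2(CPM + 1) over the 8 libraries, smaller for closer profiles. Genes were not scaled to a common spread, so genes of narrow range, such as PPFIA1, can be close whatever their order of libraries. The pseudocount further narrows genes of low CPM, such as FADD. SHANK2 was rank 9 for ANO1, and ANO1 was rank 4 for SHANK2, at a difference of 0.86. PPFIA1 was rank 292 for CTTN (0.47) and rank 459 for FADD (0.33), within the first 2.11% and 3.32% of genes. In the other direction FADD was rank 562 for PPFIA1 (4.07%) but CTTN only rank 2519 (18.2%). For CCND1 no other listed gene was near, with FADD closest at rank 7387 (0.81) and SHANK2 farthest at rank 13355 (2.15). The genes most like CCND1 were MAP3K1, a kinase kinase kinase of the JNK pathway, GTF2H2 and ZNF714, each at 0.18. MAP3K1 stood at 60.0, 84.1, 46.1 and 148 CPM in knockdown 1 to 4 and at 54.3, 111, 139 and 75.0 CPM in control 1 to 4. Nearest were INTS5, AGAP3 and PPME1 to FADD (0.12, 0.14 and 0.15), OTUB1, PI4K2A and KCTD21 to CTTN (0.19, 0.21 and 0.21) and TMX2, RAMAC and SPTY2D1 to PPFIA1 (0.12, 0.14 and 0.15). Nearest to ANO1 were FOXC1, LURAP1L and PLPP2 (0.56, 0.62 and 0.69), and to SHANK2 PLPP2, ALDH1L2 and ADM2 (0.77, 0.85 and 0.85). FOXC1, a forkhead transcription factor, was like ANO1 highest in knockdown 2 (50.9 CPM) and control 1 (49.7 CPM).

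**Figure D3:**
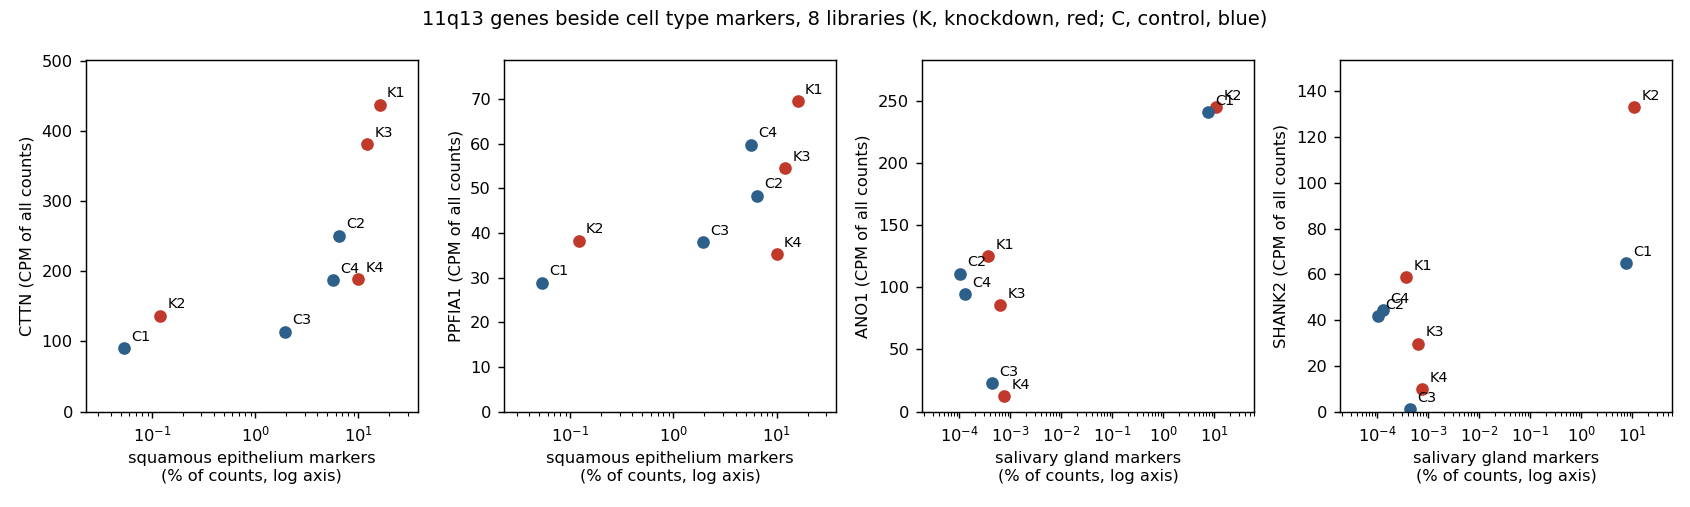
CPM of all counts (vertical axis, linear) of CTTN and PPFIA1 against the summed share of 10 squamous markers, and of ANO1 and SHANK2 against that of 10 salivary gland markers (horizontal axes, percent of counts, log scale), in 8 libraries (K, knockdown, red; C, control, blue). CTTN is highest in knockdown 1 and 3, which hold most squamous transcripts, and PPFIA1 in knockdown 1 and control 4. ANO1 and SHANK2 are highest in knockdown 2 and control 1, which hold most gland transcripts. For SHANK2, control 1 (65.0 CPM) is little above knockdown 1 (58.8 CPM), where gland markers took 0.000367% of counts.

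Knockdown 1 came nearest to a joint rise. There 5 of the 6 genes lay above their own medians, and the median of the 6 log2 ratios to the gene's median was 0.57, against -0.19 over all genes tested. CCND1 was the exception, at 0.806 times its median. With TMM scaling FADD, CTTN and PPFIA1 were all high in knockdown 1 (9.91% of tested genes were), and the median of the 6 was 0.92 against -0.01 over all genes. Control 2 also had 5 of 6 genes above their medians, but none was high. At the other end stood control 3, where 3 of 6 genes were at most 0.5 times their median (FADD, ANO1 and SHANK2, against 9.29% of tested genes) and CCND1 alone was above its median. Without the gland-rich libraries 1 gene was high in 1 library (CCND1 in knockdown 4), and without the muscle-rich libraries 0 of 6 were high in any of the 4 left.

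In no library were the other protein-coding genes of the band, from LRP5 to NADSYN1, all high either. Those named with values here were chosen after their values were seen. Of 15 such genes, 12 had a median of at least 0.1 CPM and were counted by the same rule. Per library, 0 to 2 of the 12 were high: MYEOV in knockdown 1, LRP5 in knockdown 2, DHCR7 and NADSYN1 in knockdown 3, MYEOV in knockdown 4, LRP5 and MRGPRF in control 1, and TESMIN and MYEOV in control 2. The median of the 12 log2 ratios to the gene's median was highest in knockdown 1, at 0.28 against -0.19 over all genes tested. That median was lowest in control 3, at -0.43 against 0.18. Both ends fell in the same libraries as for the listed genes. MYEOV, which lies 0.35 Mb before CCND1 and is named for its overexpression in myeloma, had the widest range of the 12, at 6.41, 0.424, 1.15 and 13.3 CPM in knockdown 1 to 4 and 0.217, 11.9, 0.992 and 2.58 CPM in control 1 to 4. Knockdown 4 was highest for both MYEOV and CCND1, but control 3, next highest for CCND1, was at 0.532 times the median for MYEOV.

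LRP5, a Wnt co-receptor, reached 298 CPM in knockdown 2 and 166 in control 1, the gland-rich libraries, against 33.0 to 93.5 CPM in the other 6. DHCR7, the last enzyme of cholesterol synthesis, and NADSYN1, an enzyme of NAD synthesis, lie beside each other 1.79 and 1.81 Mb after the CCND1 start. DHCR7 was 136 CPM in knockdown 3, 97.1 in knockdown 1 and 9.15 in control 3, and NADSYN1 132, 99.5 and 26.2 CPM. On the other side of CCND1, TPCN2 (5.93 to 13.5 CPM) and IGHMBP2 (16.8 to 28.2 CPM) had narrower ranges. With TMM scaling 4 of the 12 were high in knockdown 1 (PPP6R3, MYEOV, DHCR7 and NADSYN1), against 9.91% of tested genes.

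**Figure D4:**
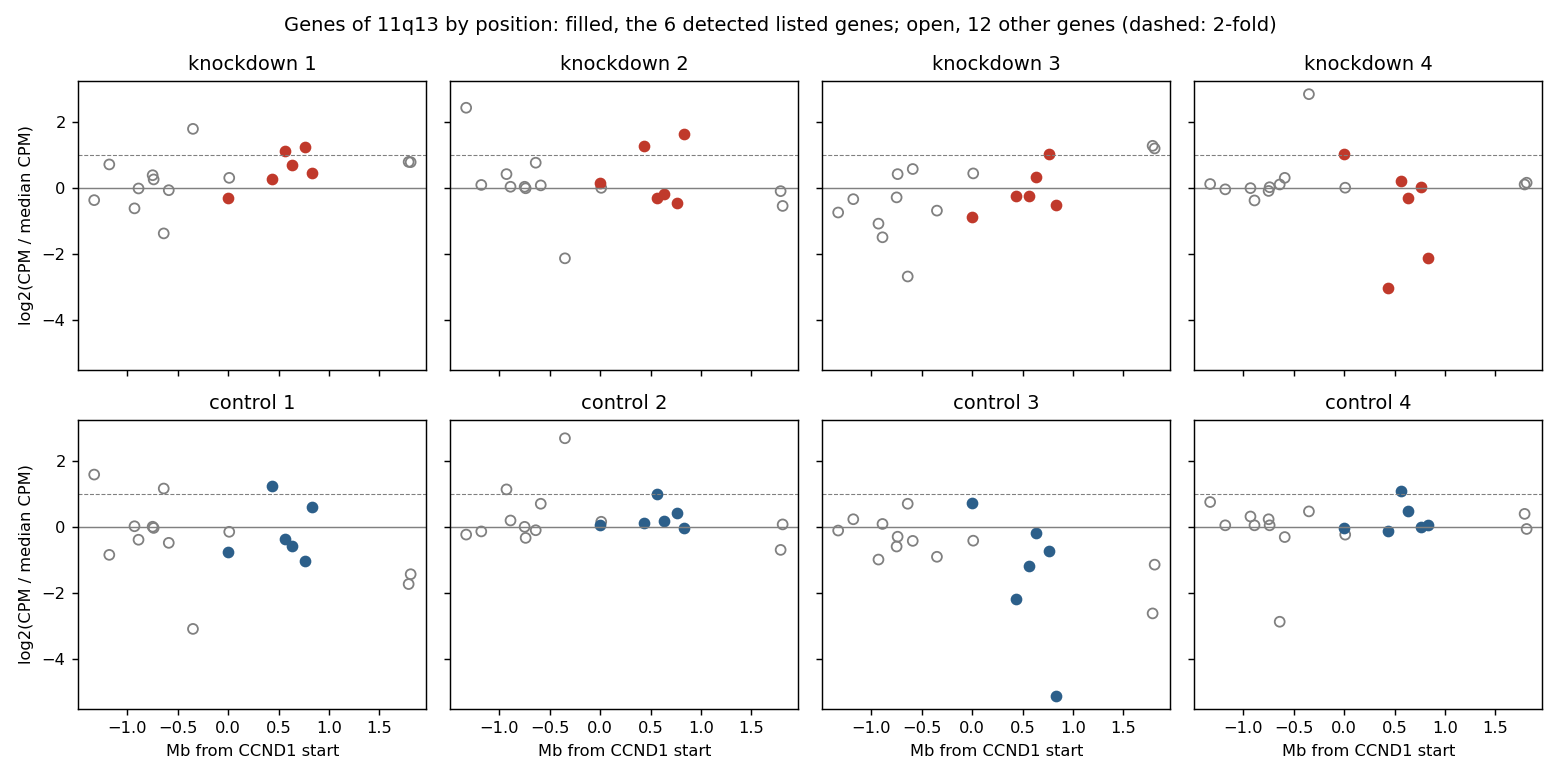
Log2 ratio of CPM to the gene's median CPM (vertical axis) against the distance of the gene's first base in chromosome order from that of CCND1 (horizontal axis, Mb), by library. Filled points are the 6 detected listed genes and open points the 12 other counted genes of the band. In every library some filled points lie above 0 and others below it, for example ANO1 above and CTTN below in control 1.

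Between the labels, none of the 6 genes passed the test. edgeR's quasi-likelihood test called 0 of 21192 genes at a Benjamini-Hochberg adjusted p under 0.05 (0%), with 1013 genes (4.78%) at an unadjusted p under 0.05. The count was also 0 with limma-voom (876 unadjusted). With DESeq2, run without the expression filter on 46022 genes, it was 148, none of them a listed gene. CTTN had the largest fitted difference of the 6: its knockdown mean was 286 ± 146 CPM against 161 ± 72.6 CPM for control (mean ± SD over 4 libraries each, as for the genes below; log2 fold change 1.14, SE 0.568, edgeR adjusted p = 0.981; exact two-sided permutation p = 0.200). SHANK2 was at 57.8 ± 53.8 and 38.1 ± 26.7 CPM (log2 fold change 0.61, SE 1.03, edgeR adjusted p = 0.995). PPFIA1 was at 49.4 ± 15.9 and 43.7 ± 13.3 CPM (0.43, SE 0.389, edgeR adjusted p = 0.981). CCND1 was at 157 ± 90.0 and 149 ± 62.7 CPM (0.23, SE 0.404, edgeR adjusted p = 0.995).

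FADD was at 1.66 ± 0.848 and 1.76 ± 1.11 CPM and ANO1 at 117 ± 97.3 and 117 ± 90.7, and their log2 fold changes were 0.14 (SE 0.662, edgeR adjusted p = 0.997) and 0.02 (SE 0.899, edgeR adjusted p = 1.000). The fitted value was above 0 for all 6 genes with TMM, but was -0.09 for FADD and -0.02 for ANO1 with library totals in place of TMM. The median of the 6 was 0.33, against -0.05 over all genes tested, of which 46.8% were above 0. For none of the 6 were the groups without overlap, which held for 498 genes, or 2.35%. Exact two-sided permutation tests of the 8 CPM values gave p from 0.200 for CTTN to 1.00 for FADD and ANO1 (6 tests, unadjusted; the smallest p that 4 against 4 allows is 0.0286). For the 12 other genes of the band that were tested, the median was 0.50 with 9 of 12 above 0, and 0 were called.

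Lists of partners of the listed genes had 0 called members each (smallest edgeR adjusted p = 0.981), and the values below are descriptions. Of 19 cyclin D and G1-S genes, 11 had a fitted value above 0 and 8 below (median 0.06). CCND2, another cyclin D, stood at 55.4 to 465 CPM, highest in control 2, where CCND1 was near its median. CDKN1A, the p21 inhibitor, stood at 61.1 to 595 CPM. It was highest in knockdown 3, where CCND1 was lowest, but only 73.8 CPM in control 1, where CCND1 was next to lowest. Of 8 FGF receptors and co-receptors 7 were below 0 (median -0.37). FGFR3 ran from 1.36 CPM in control 1 to 258 in knockdown 3, and FGFR2 from 18.8 to 168 CPM, so receptors were measured in libraries in which no FGF3, FGF4 or FGF19 read was counted.

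Of 10 death receptor genes 6 were above 0 (median 0.06), with TNFRSF1A, the TNF receptor, at 57.5 to 271 CPM and CFLAR, an inhibitor of caspase-8, at 52.6 to 176 CPM. Of 16 actin partners of cortactin 9 were above 0 (median 0.11). ACTR2, a subunit of the branching Arp2/3 complex, was at 91.8 to 393 CPM, lowest in control 1 as CTTN was, and SH3PXD2A, an invadopodium scaffold, at 141 to 562 CPM. Of 9 liprins and LAR phosphatases 2 were above 0 (median -0.35), with PTPRF, the LAR phosphatase, at 380.4 to 1357 CPM and ERC1 at 46.5 to 273 CPM.

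Of 9 other anoctamins 8 were tested and 5 were above 0 (median 0.67). ANO6, a lipid scramblase, was at 58.0 to 183 CPM and ANO10 at 19.4 to 46.6 CPM, both flatter than ANO1. Of 9 SHANK family and scaffold genes 4 were above 0 (median -0.02). HOMER2 was at 42.0 to 119 CPM and DLGAP4 at 35.2 to 76.8 CPM. SHANK3 stayed between 17.0 and 42.7 CPM where SHANK2 spanned 1.24 to 133, and SHANK1 did not exceed 1.41 CPM. SHANK1 and SHANK3 are named here after their values were seen.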

How the data were processed

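The authors deposited raw read counts per gene, 30684584 to 61795990 per library. Reads went through STAR and Subread's featureCounts on hg38 (submitters' processing notes). Their versions, the annotation and the strandedness of counting were not given in the sources used here. Symbols were matched by Ensembl identifier for 62666 of 63241 rows. CPM divides counts by the column total. Knockdown was compared with control in edgeR 4.0.16 (quasi-likelihood test, TMM factors of 0.75 to 1.19, filterByExpr, intercept and group) in R 4.3.3, and SE was taken from the test's F statistic. The test was also run on simulated counts whose libraries shared the same gene means apart from a set of changed genes. The mixed cell types seen here were not simulated, so that run does not show how the test performs on these libraries. Exact permutation tests were run in Python 3.11.15. Positions, exon lengths and gene types are from GENCODE 29 (GRCh38), whose release may differ from the authors'. Named by rule were the 9 listed genes, the 2 partners per list of highest mean log2 CPM and, for each detected gene, the 3 most similar protein-coding genes. The genes and lists were chosen with earlier results of these data known. Alternatives were DESeq2 1.42.0, limma-voom 3.58.1, RLE factors, library totals, other filters, a replicate block, other folds and pseudocounts, and leaving out libraries.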

Additional observations from a re-analysis of the deposited data

How the results depend on the processing

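Genes called between the labels numbered 0 in the fit as reported and 148 with DESeq2, which was run on 46022 genes without the expression filter. They numbered 0 to 1 with each library left out (1 without knockdown 2) and 1 without the gland-rich libraries. The other fits, the replicate block among them, gave 0. None of the called genes was a listed gene. Same-numbered libraries deviated in opposite directions (correlations of -0.65 to -0.37), which does not settle whether the numbers mark pairs. With the replicate block 0 genes were called, with 352 at an unadjusted p under 0.05. Among the log2 fold changes, CTTN (0.84 to 1.42), PPFIA1 (0.18 to 0.64) and SHANK2 (0.02 to 1.14) stayed above 0 with each library left out, while CCND1 ran from -0.12 (without knockdown 4) to 0.45, FADD from -0.36 (without knockdown 1) to 0.43 and ANO1 from -0.41 (without knockdown 2) to 0.83 (without control 1). Without the muscle-rich libraries, chosen after seeing the data as were the gland-rich ones, CCND1 was at -0.12 and FADD at -0.01. FADD was at -0.09 with library totals, and ANO1 at -0.01 with DESeq2, -0.02 with limma-voom, -0.0023 with RLE factors, -0.02 with library totals and -0.03 with no filter. The largest number of listed genes high in 1 library was 2. It was 3 at 1.5 times the median (12.8% of tested genes were) and 3 with TMM scaling (9.91%), in both FADD, CTTN and PPFIA1 in knockdown 1. At 3 times the median it was 1 (SHANK2 in knockdown 2, 9.42%). It was 2 against the gene's mean in place of its median, 1 without the gland-rich and 0 without the muscle-rich libraries. No share over all tested genes is given for these last settings. For the other genes of the band the largest number was 2. It was 4 at 1.5 times the median and 4 with TMM scaling, both in knockdown 1 (12.8% and 9.91% of tested genes). At 3 times it was 1, in knockdown 1, 2 and 4 and control 2 (3.17%, 9.42%, 4.74% and 5.34%). Pairs passing by r numbered 0, and 3 with TMM scaling. The r of ANO1 and CTTN was -0.01, and 0.17 with TMM scaling, 0.67 without the gland-rich libraries and -0.76 without knockdown 4 and control 3. Without the 2 farthest libraries, r of CCND1 and PPFIA1 was 0.06 in place of -0.27 and that of ANO1 and PPFIA1 -0.81 in place of 0.12. The cause of these changes was not tested. Depth limits FADD, with 19 to 174 reads a library, and the 3 growth factor genes.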
